A study of Mus musculus with 12 samples.

Results

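The genes described here are 30 genes of the oligodendrocyte, the glial cell that wraps axons of the brain in myelin, and they were taken by symbol from a list of genes known for this cell type. The array reads a gene through transcript clusters, sets of probes that share 1 transcribed region, and the brightest cluster over all 12 arrays stood for its gene. Of the 30 genes, 29 were measured, each by 1 cluster of the 35556 on the array, and Enpp2 was not analysed here. They comprised 11 proteins of the myelin sheath, 6 measured enzymes of myelin lipids and metabolites, 5 transcription factors, 6 proteins of precursors and of differentiating cells, and transferrin.

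Septum RNA came from 6 lactating females on postpartum days 6 to 8 and from 6 age-matched virgin females of about 70 days, and each mouse had an Affymetrix Mouse Gene 1.0 ST array of its own. All 12 mice came from 1 line bred from outbred hsd:ICR stock for high maternal aggression, so the values hold for that line. Lactating mice had lived with a breeder male for a period in which virgin mice lived with other females, and mice of both groups were then housed alone. The virgin mice were in estrus or diestrus, with the stage of each mouse not given in the labels. The methods of the study describe punches of both lateral and medial septum, whereas the labels' protocol mentions the lateral portion alone. Mice are numbered 1 to 6 within a group as in the labels, which do not say whether the numbers follow an order.

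Myelin is a spiral of oligodendrocyte membrane that speeds conduction along axons, rich in galactolipids and held together by a small set of abundant proteins. Its cells arise throughout adult life from precursors that carry the receptor Pdgfra and the proteoglycan Cspg4, pass through a stage that expresses Gpr17, Bcas1 and Enpp6, and then switch on the genes of the sheath under the transcription factors Sox10, Olig2 and Myrf. The septum is crossed by myelinated fibres on their way to and from the hippocampus. In dissected tissue, fewer oligodendrocytes and less RNA per oligodendrocyte cannot be told apart.

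The deposited values were PLIER intensities on a linear scale, from 3e-05 to 26317, with array medians between 319.6 and 339.1. Lactating mouse 4 had the highest sum of 4 genes of cortical and hippocampal neurons (7216, against 1772 to 3300.1 in the other lactating mice and 1888.4 to 3439.6 in virgin mice) and the lowest of striatal genes (7418.6). It was the highest mouse for Neurod6, Tbr1 and Slc17a7, but not for Neurod2 (1608, against 1703 in virgin mouse 6). Virgin mouse 6 had the highest sum of 8 microglial markers (7199.2, against 5107.4 to 5402.3 in lactating mice and 5171.5 to 5394.1 in the other virgin mice), and also the highest Gfap intensity, 2024. Of the microglial markers, this mouse was the highest for Cx3cr1, Csf1r, C1qa, C1qb and Itgam, but not for P2ry12, Tmem119 and Aif1. Genes of the lateral septum, 4 of them measured, summed to 8593 to 9942 in lactating mice and 8041.4 to 9834.5 in virgin mice.

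No oligodendrocyte gene passed the test between lactating and virgin mice. At an unadjusted limma p under 0.05, 0 of the 29 genes were higher in lactating mice, against 3.26% of all clusters, and 0 were lower, against 4.69% of all clusters. After Benjamini-Hochberg adjustment over all clusters, 0 genes passed at 0.05, as did 0 clusters of the array (0.0%), where the smallest adjusted p from limma was 0.0715 and 2828 clusters had an unadjusted p under 0.05. The smallest unadjusted limma p among the 29 genes was 0.117 and the smallest adjusted limma p 0.648. The groups overlapped for each of the 29 genes, while they did not overlap for 0.394% of all clusters.

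The differences, lactating minus virgin on the log2(intensity + 16) scale, were small and ran both ways. They were positive for 13 genes and negative for 16, and their median was −0.01, which was also the median over all clusters. Mal, with 0.17, and Opalin, with −0.13, marked the ends of the range. The half-width of the 95% interval of a difference lay between 0.10 for Cspg4 and 0.35 for Opalin. It exceeded the difference itself in each of the 29 genes, so changes of the size of these differences could not be resolved. The median over the 29 genes was −0.06 without lactating mouse 6 and 0.03 without lactating mouse 1.

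**Figure D1:**
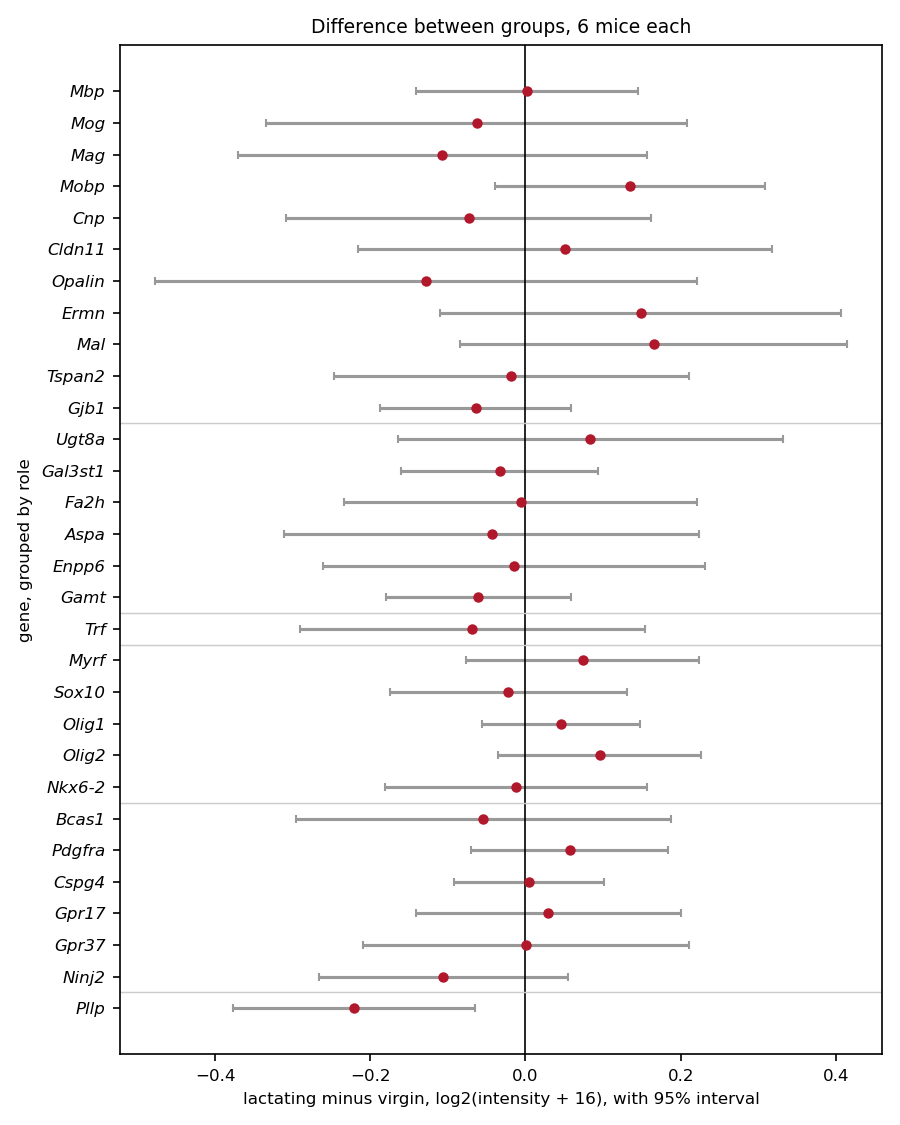
Lactating minus virgin difference of each gene on the log2(intensity + 16) scale (horizontal axis), with points for the limma estimate and bars for its 95% interval, 6 mice per group. Genes are grouped by role, and the bottom row is Pllp, a sheath gene outside the list of 29. The intervals of all 29 genes cross 0, and that of Pllp lies between −0.38 and −0.07.

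The clearest pattern in these genes lay in the spread between mice. For 28 of the 29 genes (96.6%) the SD of the log2 values was greater among lactating than among virgin mice, which was the case for 45.5% of all clusters. The median SD of the 29 genes was 0.234 in lactating mice and 0.109 in virgin mice, while over all clusters it was 0.101 in lactating mice and 0.107 in virgin mice. In 19 genes (65.5%), lactating mice 5 and 6 both lay above the 10 other mice, as in 366 clusters of the array (1.03%), and for 25 genes both were among the 3 highest of the 12 mice. Lactating mouse 6 was the highest mouse for 18 genes and lactating mouse 5 for 6, and lactating mice 1 to 4 held the lowest value for 20 genes, with lactating mouse 1 the lowest for 11. Mouse 6 was the highest of all in 5.64% of clusters and lactating mouse 1 the lowest in 9.57%. These counts were read from the values and the difference in spread was not tested. How much white matter each punch held is not given in the labels, and its part in the spread was not tested. All 29 genes were read in the same 12 samples, so they are not independent counts.

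The same order of mice appeared in the deviation of each mouse from the mean over 12 mice, averaged over the 29 genes. It was −0.173, −0.109, −0.084, −0.131, 0.215 and 0.284 on the log2 scale in lactating mice 1 to 6, and −0.09, −0.008, 0.091, −0.049, 0.069 and −0.015 in virgin mice 1 to 6. Lactating mice 5 and 6 thus lay above every virgin mouse and lactating mice 1, 2 and 4 below every one, with virgin mice 3 and 5 the highest of their group. The deviation was wider in the sheath proteins, at −0.249 in lactating mouse 1 and 0.349 in lactating mouse 6, than in the transcription factors, at −0.049 and 0.224 in the same mice.

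**Figure D2:**
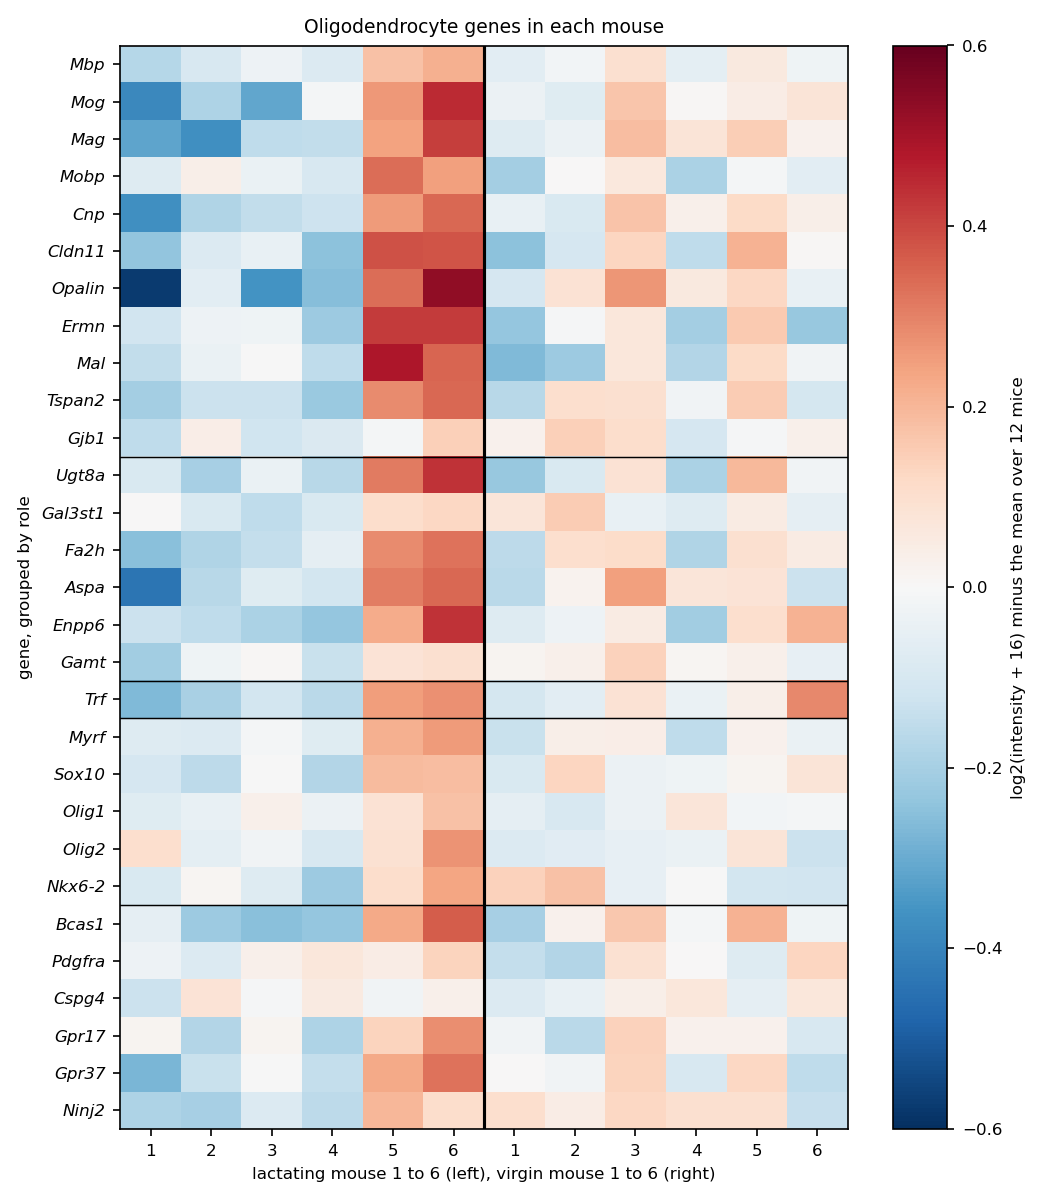
Log2(intensity + 16) of each gene in each mouse minus the gene's mean over 12 mice (colour scale), with lactating mice 1 to 6 on the left, virgin mice 1 to 6 on the right and genes grouped by role. The columns of lactating mice 5 and 6 are red for most genes and that of lactating mouse 1 is mostly blue, while the virgin columns are paler.

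The sheath proteins showed this spread most widely, with lactating mice 5 and 6 above all others for 10 of 11 genes and a median SD of 0.276 in lactating mice and 0.109 in virgin mice. Mbp, the basic protein that holds the inner faces of the membrane together, had intensities of 5152, 5431, 5671, 5468, 6546 and 6721 in lactating mice 1 to 6 and of 5550, 5732, 6202, 5573, 6037 and 5695 in virgin mice 1 to 6. Mice 5 and 6 of the lactating group lay above every virgin mouse and the other 4 lactating mice below most of them, so the means hardly differed (5831 ± 645.3 in lactating mice and 5798 ± 263.7 in virgin mice, SD, n = 6 each, log2 difference 0.00 ± 0.07 SE, exact permutation test, two-sided, p = 0.970).

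Opalin, a transmembrane glycoprotein of central myelin, varied most among the genes, 2.22-fold between the highest and the lowest mouse. Its intensities were 301, 434.8, 352.3, 379.4, 578.2 and 666.9 in lactating mice 1 to 6 and 424, 484.7, 549.9, 474.8, 498.7 and 440.7 in virgin mice 1 to 6. Lactating mice 1, 3 and 4 lay below every virgin mouse and lactating mice 5 and 6 above every one. The difference of means was −0.13 ± 0.16 (SE) on the log2 scale (exact permutation test, two-sided, p = 0.498).

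Mog, an immunoglobulin-like protein on the outermost surface of the sheath, had the widest spread relative to virgin mice, with an SD of 0.33 in lactating mice and 0.09 in virgin mice on the log2 scale. It read 1234, 1420, 1297, 1603, 1937 and 2208 in lactating mice 1 to 6 and 1575, 1538, 1818, 1622, 1665 and 1708 in virgin mice 1 to 6. Lactating mice 1, 2 and 3 were below and lactating mice 5 and 6 above the whole range of the virgin group. Mag, the adhesion protein that faces the axon, followed the same mice, at 1544, 1490, 1735, 1739, 2284 and 2575 in lactating and 1826, 1878, 2193, 2033, 2137 and 1962 in virgin mice, with lactating mice 1 to 4 below every virgin mouse. Cnp, a nucleotide phosphodiesterase that keeps channels of cytoplasm open in the sheath, also had lactating mice 1 to 4, at 2594 to 3069, below the virgin range of 3143 to 3778, and lactating mice 5 and 6, at 3999 and 4265, above it. The differences of these 3 genes, −0.06 for Mog, −0.11 for Mag and −0.07 for Cnp, were smaller than their standard errors of 0.13, 0.12 and 0.11.

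In Mal, Mobp, Ermn and Cldn11 the low lactating mice were not below the virgin group. Mal, a proteolipid of membrane sorting, read 1677, 1809, 1854, 1672, 2607 and 2368 in lactating mice 1 to 6 and 1545, 1595, 1945, 1641, 2016 and 1833 in virgin mice 1 to 6. Lactating mice 1 to 4 fell within the virgin range and only lactating mice 5 and 6 lay outside it, which gave the difference of 0.17 ± 0.12 (SE; limma p = 0.176, exact permutation test, two-sided, p = 0.236). Mobp, a basic protein of compact myelin, gave 2042, 2184 and 2758 as the lowest, median and highest of the lactating mice and 1895, 2129 and 2286 in virgin mice, a difference of 0.13 ± 0.08 (SE). Ermn, a cytoskeletal protein of the outer loops of the sheath, differed by 0.15 ± 0.12 (SE), with 873.2 to 1366 in lactating mice and 863.4 to 1138 in virgin mice. Cldn11, which forms the tight junctions of the sheath, differed by 0.05, with 1973 to 3057 in lactating mice and 1971 to 2703 in virgin mice. The remaining sheath genes were Tspan2, a tetraspanin, with a difference of −0.02, and Gjb1, a gap junction connexin, with −0.06. Gjb1 was the sheath gene in which lactating mice 5 and 6 were not both highest (346.5 and 386.9, against 312.4 to 359.8 in the other lactating mice and 324.3 to 388 in virgin mice).

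**Figure D3:**
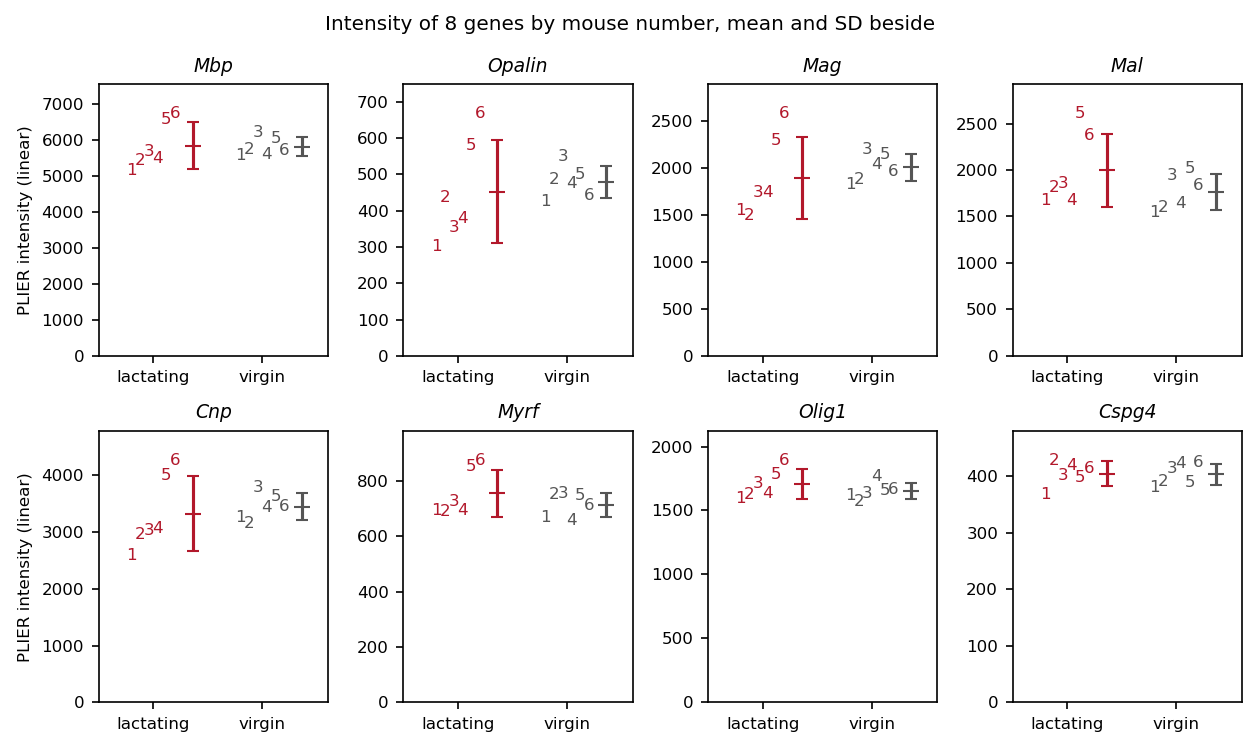
Intensity on the linear PLIER scale (vertical axes, from 0) of 8 genes in each mouse, with lactating mice left in red and virgin mice right in grey. Digits are mouse numbers, and the horizontal mark and bar beside them are the mean and SD of 6 mice. Lactating mice 5 and 6 stand above the others in all panels but Cspg4, where the groups lie over the same range.

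The enzymes of myelin lipids and metabolites split. Ugt8a, which adds galactose to ceramide to make the main myelin galactolipid, read 1249, 1158, 1295, 1185, 1656 and 1802 in lactating mice 1 to 6 and 1135, 1248, 1416, 1164, 1523 and 1310 in virgin mice 1 to 6, with a difference of 0.08 ± 0.12 (SE). Lactating mice 5 and 6 were its highest, as for Fa2h, which hydroxylates the fatty acids of these lipids (801.7 to 1205 in lactating mice and 843.3 to 1035 in virgin mice, −0.01), for Aspa, which cleaves N-acetylaspartate (310 to 546.4 in lactating mice and 379.4 to 507.9 in virgin mice, −0.04), and for Enpp6, a choline phosphodiesterase of newly formed oligodendrocytes (179.8 to 294.7 in lactating mice and 182.9 to 249.8 in virgin mice, −0.01).

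Gal3st1 and Gamt did not have both mice on top. Gal3st1, the sulfotransferase that turns galactolipid into sulfatide, ranged from 330.7 to 405.2 in lactating and from 350.1 to 412.7 in virgin mice. Virgin mouse 2 was highest, and the difference between groups was −0.03. Gamt, which completes creatine synthesis, ranged from 1088 to 1345 in lactating and from 1217 to 1387 in virgin mice. Virgin mouse 3 was highest, and the groups differed by −0.06. Over the 6 enzymes 1 difference was positive and 5 were negative, with a median of −0.02.

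Transferrin, the iron carrier that oligodendrocytes make in the brain, followed the same lactating mice but had its highest value elsewhere. Trf read 2237, 2352, 2496, 2402, 3211 and 3255 in lactating mice 1 to 6 and 2498, 2577, 2864, 2621, 2762 and 3290 in virgin mice 1 to 6, a difference of −0.07 ± 0.10 (SE). Virgin mouse 6 was the highest, the mouse that also had the highest microglial sum and the highest Gfap. The choroid plexus makes transferrin as well, and its marker Ttr ranged from 211.3 to 283.7 in lactating mice and from 190.5 to 338.2 in virgin mice, at 268.6 in virgin mouse 6. The part of these cells in the Trf values was not tested.

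The transcription factors varied less than the sheath genes, with a median SD of 0.155 in lactating mice and 0.081 in virgin mice. Olig1, a basic helix-loop-helix factor of the lineage, read 1596, 1625, 1712, 1636, 1780 and 1894 in lactating mice 1 to 6 and 1616, 1570, 1636, 1764, 1655 and 1665 in virgin mice 1 to 6. Its highest mice were again lactating mice 6 and 5, with virgin mouse 4 just below, and the difference was 0.05 ± 0.05 (SE). Myrf, which drives the genes of the mature sheath, was at 850.1 and 874.8 in lactating mice 5 and 6, against 689 to 726.3 in the other lactating mice and 655.4 to 753 in virgin mice, and Sox10, which opens the program in the whole lineage, was at 861.4 and 859.2, against 666.2 to 753.4 in the other lactating mice and 706.1 to 825.3 in virgin mice. Their differences were 0.07 for Myrf and −0.02 for Sox10.

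Olig2 and Nkx6-2 had lactating mouse 6 but not mouse 5 clear of the others. Olig2, the partner of Olig1 that specifies the lineage, had the difference of 0.10 ± 0.06 (SE; limma p = 0.140, exact permutation test, two-sided, p = 0.145), the lowest exact p among the 29 genes. It ranged from 751.7 to 973.7 in lactating mice and from 734.9 to 850 in virgin mice. Nkx6-2, a homeobox factor of oligodendrocytes, ranged from 382.1 to 530.3 in lactating and from 411.4 to 507.7 in virgin mice, with a difference of −0.01.

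Genes of precursors and of cells in differentiation were the least uniform. Gpr37, an orphan receptor of maturing oligodendrocytes, read 1082, 1194, 1308, 1184, 1539 and 1648 in lactating mice 1 to 6 and 1315, 1292, 1441, 1227, 1429 and 1179 in virgin mice 1 to 6 (difference 0.00 ± 0.10 SE), and Bcas1, a marker of cells that start to myelinate, ranged from 921.6 to 1419 in lactating mice and from 953.6 to 1274 in virgin mice (difference −0.05). Both had lactating mice 5 and 6 on top, the only 2 of the 6 genes of this group to do so. Gpr17, a receptor of cells committed to differentiate, had its highest value in lactating mouse 6, 812.5, but lactating mouse 5, at 733.3, lay below virgin mouse 3, at 735.8 (difference 0.03).

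The precursor genes Pdgfra and Cspg4 did not separate these mice. Cspg4, the surface proteoglycan of precursors, read 366.8, 428, 401.1, 419, 397.2 and 412.6 in lactating mice 1 to 6 and 380.1, 389.6, 413, 422.8, 387.8 and 422.9 in virgin mice 1 to 6, a difference of 0.00 ± 0.04 (SE) with an interval from −0.09 to 0.10. Both groups covered the same range, and lactating mice 5 and 6 lay in its middle. Pdgfra, the receptor for the growth factor that keeps precursors dividing, was the gene of the 29 whose SD was greater in virgin mice (0.08 in lactating and 0.13 in virgin mice), with 936.4 to 1089 in lactating mice and 876.3 to 1086 in virgin mice and a difference of 0.06 ± 0.06 (SE).

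Ninj2, an adhesion protein first described in injured nerve and present in oligodendrocytes, read 282.5, 280.2, 304.7, 288.8, 373.9 and 349.1 in lactating mice 1 to 6 and 347.9, 333.8, 353.6, 347.2, 346.7 and 292.1 in virgin mice 1 to 6. Lactating mice 1 to 4 and virgin mouse 6 formed the low values, and 5 virgin mice lay within 333.8 to 353.6. The difference was −0.11 ± 0.07 (SE; limma p = 0.179, exact permutation test, two-sided, p = 0.208), and without lactating mouse 5 it was −0.16 with an unadjusted limma p of 0.0341.

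**Figure D4:**
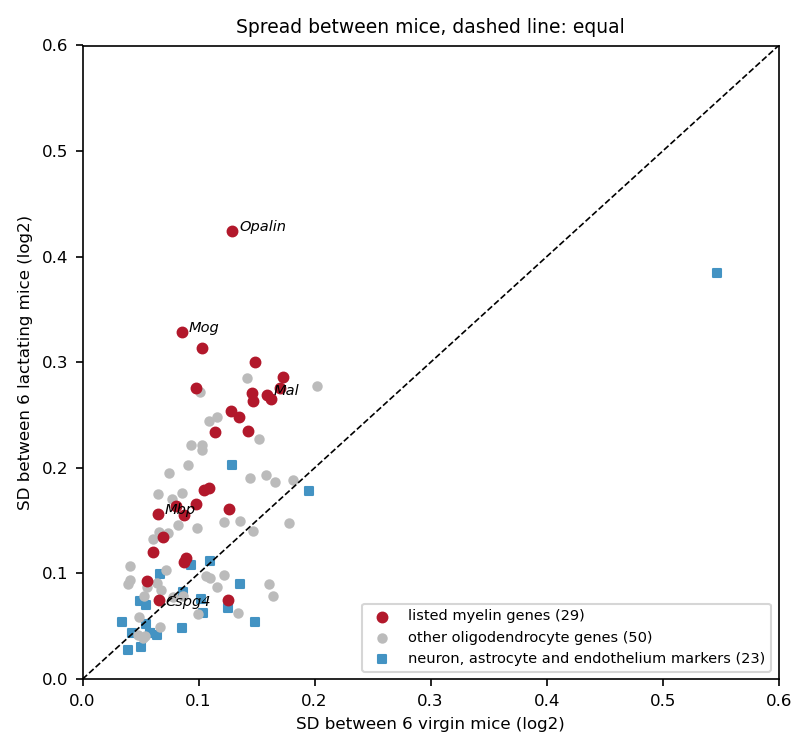
SD of log2(intensity + 16) between the 6 lactating mice (vertical axis) against that between the 6 virgin mice (horizontal axis), with red points for the 29 genes, grey points for 50 other oligodendrocyte genes, blue squares for markers of neurons, astrocytes and endothelium, and a dashed line where the SDs are equal. Of the red points 28 lie above the line, with Opalin and Mog the highest, and the blue squares lie on both sides of it.

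A second set of oligodendrocyte genes, 50 of 52 listed and none of them among the 29, gave 0 genes higher and 1 lower at an unadjusted limma p under 0.05, with 0 after adjustment over all clusters. Over all clusters 3.26% were higher and 4.69% lower, so the single lower gene among 50 is no more than this share. It was Pllp, plasmolipin, a sheath protein of the same family as Mal. It read 1332, 1411, 1476, 1538, 1647 and 1881 in lactating mice 1 to 6 and 1683, 1757, 1931, 1784, 1827 and 1802 in virgin mice 1 to 6, so that 5 lactating mice lay below every virgin mouse and lactating mouse 6 within the virgin range. The difference was −0.22 ± 0.07 (SE; limma p = 0.00907, adjusted limma p = 0.619, exact permutation test, two-sided, p = 0.0216), and it stayed between −0.28 and −0.18 with each array left out in turn. Next by p came Anln, an actin-binding protein that stabilises the sheath, at 568.5 ± 115.5 in lactating mice and 466 ± 66.92 in virgin mice (SD, n = 6 each; log2 difference 0.27 ± 0.13 SE; exact permutation test, two-sided, p = 0.0931), and Tmem125, with a difference of −0.10 ± 0.05 (SE).

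In the second set the spread was also greater in lactating mice for 34 of 50 genes, with a median SD of 0.139 in lactating mice and 0.0963 in virgin mice, and lactating mice 5 and 6 were both on top for 14. These were Plekhb1, Hapln2, Nfasc, Cntn2, Cryab, Qdpr, Tppp, Ndrg1, Anln, Adamts4, S1pr5, Tmem88b, Slc44a1 and Neu4. Cryab, a small heat shock protein abundant in myelin, had 2618 and 2647 in lactating mice 5 and 6, against 1831 to 1972 in the other lactating mice and 1732 to 2049 in virgin mice.

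Signals and regulators that act on the lineage, 19 of 22 listed, gave 1 gene higher and 0 lower at an unadjusted limma p under 0.05, where 3.26% of all clusters were higher, so 1 of 19 is near that share. The gene, Igf1r, the receptor through which insulin-like growth factor promotes oligodendrocyte survival, had a mean of 1258 ± 70.41 in lactating and 1155 ± 47.75 in virgin mice (SD, n = 6 each; log2 difference 0.12 ± 0.04 SE; limma p = 0.0177, adjusted limma p = 0.619; exact permutation test, two-sided, p = 0.0152), and it is expressed by many brain cells besides. Next came Id2, an inhibitor of differentiation, with 0.10 ± 0.07 (SE), and the thyroid hormone receptor Thra, with 0.05 ± 0.04 (SE). Of the 19, only Erbb3, the neuregulin receptor of the lineage, had lactating mice 5 and 6 on top (440 and 467.2, against 307.3 to 374.9 in the other lactating mice and 330.3 to 384.2 in virgin mice).

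Of 62 markers of other cells and regions in 11 lists, lactating mice 5 and 6 were both on top for 1, the microglial gene Aif1. The 9 neuronal markers summed to 55089 and 55230 in lactating mice 5 and 6, below the 55253 to 57226 of the other lactating mice. Both sums lay within the 53794 to 57916 of virgin mice. The markers' mean log2 deviation was 0.007 and 0.002 in lactating mice 5 and 6, against −0.017 to 0.057 in the other lactating mice. The 8 astrocyte markers summed to 34799 and 34746 in lactating mice 5 and 6. The range was 33723 to 36448 in the other lactating mice and 33257 to 35709 in virgin mice. The mean log2 deviation of the 8 microglial markers was 0.002 and 0.028 in lactating mice 5 and 6, against −0.094 to −0.008 in the other lactating mice and −0.099 to 0.347 in virgin mice, where all but virgin mouse 6 were below 0. That of the astrocyte markers was 0.014 and 0.089 in lactating mice 5 and 6, against −0.097 to 0.116 in the other lactating mice and −0.096 to 0.131 in virgin mice. The order of the mice in the microglial and astrocyte lists thus overlapped in part with that in the oligodendrocyte genes, at a smaller size. The part of these cells in it was not tested.

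A greater SD in lactating mice, the case for 45.5% of all clusters, was above that share in some other lists and below it in others. It held for 4 of 4 striatal genes (median SD 0.282 in lactating mice and 0.169 in virgin mice), for 4 of 4 genes of cortical and hippocampal neurons (1.08 in lactating mice and 0.468 in virgin mice), for 3 of 5 ependymal and 2 of 3 Schwann cell markers, and for 2 of 9 neuronal, 3 of 8 astrocyte, 2 of 8 microglial, 3 of 6 endothelial, 0 of 7 choroid plexus, 0 of 4 medial septal and 2 of 4 lateral septal markers. In the striatal and cortical lists lactating mouse 4 lay farthest from the mean of all mice, with mean log2 deviations of −0.506 and 1.765. Of the 8 microglial markers, P2ry12 and Cx3cr1 were lower in lactating mice at an unadjusted limma p under 0.05. Over all clusters 4.69% were lower. Their log2 differences were −0.12 and −0.11, with adjusted limma p of 0.619 and 0.623. Of the 8 differences 6 were negative and 2 positive. In other lists Slc17a6, Clic6 and Cdh19 were higher and Ccdc153 and Slc4a5 lower at that threshold, among 62 markers in all lists. Over all clusters 3.26% were higher and 4.69% lower. The adjusted limma p of each of these genes was 0.619 or 0.623.

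The array medians of lactating mice 5 and 6 were 336.1 and 319.6, near the highest and at the lowest of the 12. With each array's median subtracted, both mice were on top for 19 of the 29 genes, and after quantile normalization for 18. Of 3 measured markers of Schwann cells, which make the myelin of peripheral nerves, Cdh19 was higher in lactating mice (432.8 ± 104 in lactating and 281.8 ± 47.87 in virgin mice, SD, n = 6 each, log2 difference 0.57, exact permutation test, two-sided, p = 0.0108, adjusted limma p = 0.619), at 510.3 in lactating mouse 5 and 311.8 in lactating mouse 6. Its part in the values of the sheath genes was not tested. Ncmap and Dhh went the other way, with log2 differences of −0.06 and −0.10, and did not pass the test.

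Windows from 250 bases before to 50 bases after the start of each gene were searched on both strands for sequences bound by lineage factors. RefSeq sequences of GRCm38.p6 were at hand for 21 of the 29 genes, leaving out Bcas1, Fa2h, Gpr17, Mbp, Myrf, Olig1, Sox10 and Trf. The MYRF sequence, CTGGCAC or CTGGTAC, stood in the promoters of 5 of the 21 genes (23.8%), Cnp, Gamt, Mag, Mog and Opalin, and in those of 8.1% of 27025 genes. The SOX sequence, ACAAAG or ACAATG, stood in 10 of the 21 (47.6%) and in 31.7% of all genes, and the E-box CATCTG or CAGCTG, of the type that Olig proteins bind, in 6 of the 21 (28.6%) and in 33.4% of all genes. A gene counted when any of its promoters held a match. The 21 genes had 29 promoters and the 27025 genes 32851, so the number per gene was not the same. These are matches of letters, which show neither binding nor control, and the shares were not tested.

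Mag, Cnp and Mog were the sheath genes with a MYRF match in the 200 bases before their start, and like 10 of all 11 sheath genes they had lactating mice 5 and 6 on top. The sequences are RefSeq's, of GRCm38.p6, 5′ to 3′ on the strand of the gene, with matches in capitals. In Mag, on the minus strand at chr7:30914864-30915063, CTTTGT at −126 is the SOX sequence read on the opposite strand and CTGGCAC at −68 the MYRF sequence. In Cnp, on the plus strand at chr11:100574739-100574938, ACAAAG lies at −167 and CTGGCAC at −81. In Mog, on the minus strand at chr17:37023399-37023598, GTACCAG at −83 is the MYRF sequence on the opposite strand. In Opalin the MYRF match lay after the start of the gene, at 37.
Mag: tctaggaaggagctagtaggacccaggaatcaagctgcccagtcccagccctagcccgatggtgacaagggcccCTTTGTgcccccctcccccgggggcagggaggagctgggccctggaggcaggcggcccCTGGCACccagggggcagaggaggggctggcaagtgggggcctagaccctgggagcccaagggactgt
Cnp: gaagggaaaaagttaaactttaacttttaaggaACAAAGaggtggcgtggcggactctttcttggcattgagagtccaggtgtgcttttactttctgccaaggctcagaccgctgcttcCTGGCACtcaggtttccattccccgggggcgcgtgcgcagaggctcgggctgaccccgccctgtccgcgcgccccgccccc
Mog: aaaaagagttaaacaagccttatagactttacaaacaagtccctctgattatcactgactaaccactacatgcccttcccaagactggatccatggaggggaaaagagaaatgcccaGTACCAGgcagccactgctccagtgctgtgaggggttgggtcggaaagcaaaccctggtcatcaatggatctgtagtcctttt
Gamt, the other gene with a MYRF match, was not among the genes with lactating mice 5 and 6 on top, and Mal and Mobp, which were, had no MYRF match in this window. Any link of these matches to the order of the mice was not tested.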

How the data were processed

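Septum RNA of 6 lactating and 6 virgin mice, grouped by GEO's labels, was measured on 12 arrays of 1 channel. The deposited intensities are linear. The authors made them with Affymetrix Power Tools 1.12.0, named in the submitters' processing notes, using PLIER after correcting background within bins of GC content. The build of the array's annotation was not given in the sources used here, so no array positions are printed.

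From these intensities log2(intensity + 16) was computed and compared with limma 3.58.1 in R 4.3.3 (lmFit and eBayes, two-sided, no filter, Benjamini-Hochberg over all 35556 clusters). Intervals are at 95%. Single genes were also compared by an exact permutation test over 924 assignments, whose smallest p is 0.00216. A gene took its brightest cluster by the mean of 12 arrays. The fit was checked on simulated data. The number of arrays limits the precision. Nothing in the labels says more of the mice than that they are biological replicates.

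The genes, lists and tests were chosen with earlier results of these data known. By rule, values in every mouse were given for the brightest gene of each role, for genes under an unadjusted p of 0.05 and for genes with an array far from its group, and from the further lists the 3 genes with the smallest p were named. Opalin, Mog, Mag, Cnp, Mal, Cspg4, Cryab, Erbb3, Cdh19, Aif1, the microglial genes and the mice 5 and 6 were singled out after their values were seen. The motif search and its 3 sequences were also chosen then. The settings varied were the linear scale, 1 added in place of 16, quantile normalization, subtraction of array medians, brighter clusters alone (those over the median intensity), a robust fit with a variance trend, replicate number as a block, all of a gene's clusters averaged and each array left out. The removal of lactating mouse 4 and virgin mouse 6 together, and all alternatives for the spread, were added after the data were seen. The authors' methods say that RNA was prepared in matched pairs, but not which mice formed them.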

Additional observations from a re-analysis of the deposited data

Results flagged for a closer look

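Among the 29 genes and Pllp, 1 value stood far from the rest of its group. Ninj2 in virgin mouse 6 was 292.1, against 333.8 to 353.6 in the other virgin mice, a gap of 0.697 of the group's range on the log2 scale, above Dixon's limit for 6 samples. In lactating mice the gene ranged from 280.2 to 373.9. Chance alone flags about 1 in 20 groups, and 60 groups were examined. Virgin mouse 6 also had the highest microglial sum and the highest Trf and Gfap of the virgin mice, and the part of other cells in its Ninj2 value was not tested.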

How the results depend on the processing

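The counts of the 29 genes higher and lower at an unadjusted limma p under 0.05 were 0 and 0 under all alternatives but 2. With a replicate block 1 gene of the 29 was higher, Mal, with a difference of 0.17. Its unadjusted limma p was 0.0376 with the block and 0.176 without it. Without lactating mouse 5, 1 gene was lower, Ninj2. Over all clusters, same-numbered mice correlated above 0.1 in their deviations from the group mean for 2 of 6 numbers, and at most at 0.25. These correlations do not show how single genes follow the mouse number. The arrays were compared without the pairing, which stays unknown. No gene of the 29 passed after adjustment under any alternative. With each array left out in turn, 0 to 0 genes were higher, 0 to 1 lower and 0 to 0 called after adjustment, and the median difference was between −0.06 and 0.03. Uncalled differences took the other sign in up to 7 of the 29 genes with an array left out, and in 5 with array medians subtracted. Of the 50 other oligodendrocyte genes, 1 was higher (Anln) with array medians subtracted, among the brighter clusters alone and with the variance trend. The same gene was higher with all clusters of a gene averaged, and without lactating mouse 4 and virgin mouse 6 together. With the replicate block 3 were higher, Anln, Jam3 and Zfp536, at unadjusted limma p of 0.00113, 0.0343 and 0.0405. For Anln it was 0.055 without the block. With each array left out, 0 to 3 were higher and 1 to 2 lower, and Pllp was lower under every alternative. The greater SD in lactating mice held for 28 of the 29 genes under every scaling and for 26 to 28 with each array left out, lowest without lactating mouse 6, where the median SD in lactating mice was 0.183. Lactating mice 5 and 6 were both on top for 19 to 22 genes with another array left out and for 20 without lactating mouse 4 and virgin mouse 6. With 6 mice per group, differences within 0.0964 to 0.349 on the log2 scale, the half-widths of the intervals, could not be resolved.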

Other observations

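Within an array, the ratio of some sheath genes was higher in most lactating mice than in any virgin mouse. These ratios were chosen after the values were seen, are relative to a virgin mean of 1, and were not tested. Each set a gene with a positive difference over one with a negative difference. A higher mean in lactating mice thus followed from the choice. Mal over Mag was 1.24, 1.38, 1.22, 1.10, 1.30 and 1.05 in lactating mice 1 to 6, and 0.964, 0.968, 1.01, 0.919, 1.07 and 1.06 in virgin mice 1 to 6. It was above every virgin mouse in 5 of 6 lactating mice. The mean ratio was 1.21 ± 0.125 in lactating mice, and the SD in virgin mice was 0.0611 (SD, n = 6 each). Mal over Pllp, which belong to the same protein family, had a mean of 1.32 ± 0.165 in lactating mice and an SD of 0.0792 in virgin mice, and was again above every virgin mouse in 5 of 6. Mobp over Mag did the same in 5 of 6, with a mean of 1.19 ± 0.159 in lactating mice and an SD of 0.0699 in virgin mice. Of the mice with the highest sheath values, lactating mouse 6 had a Mal over Mag within the virgin range, and lactating mouse 5 had the highest Mal over Pllp of all mice, 1.62. Of the other ratios computed, Mal over Opalin and Mobp over Opalin were above every virgin mouse in 5 of 6 lactating mice. Ermn over Mag, Cldn11 over Mag, Mal over Cnp and Mobp over Mog were so in 4 of 6. A ratio within an array does not show which of its genes differs, and no gene of the 29 passed the test between groups.

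Across the whole array 240 different gene symbols had lactating mice 5 and 6 above the 10 other mice. Ordered by the gap on the log2 scale between the lower of the 2 mice and the highest other mouse, the first 20 held 7 of the 29 genes, 4 genes of the further oligodendrocyte and signal lists and 9 in no list. The widest gaps were those of Cryab (0.35), Anln (0.29), Ermn (0.26), Smco3 (0.24) and Mal (0.23). Smco3, in no list, was at 473.9 and 481.8 in lactating mice 5 and 6, against 341.9 to 397.4 in the other 10 mice. Septin4, a cytoskeletal septin, was at 1706 and 1713 in lactating mice 5 and 6, against 1114 to 1542 in the other 10 mice, and the mucin-type glycosyltransferase Galnt6 at 230.6 and 253.5, against 148.4 to 211.3. Genes in this order were picked by the same mice that they describe, so their gaps carry no test.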
